A study of Caenorhabditis elegans with 6 samples.

Results

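The genes described here are 76 genes of *Caenorhabditis elegans* that carry only a sequence name and gave at least 3-fold more signal in animals exposed to RPW-24 than in animals exposed to the solvent DMSO. Total RNA of wild-type N2 animals, taken whole, went onto 6 Affymetrix arrays that cover the genome. Each group had 3 biological replicates, which bear the letters G, H and I. In both groups synchronized animals at the late L4 larval stage were kept for 15 h at 15°C in liquid S-basal medium with *E. coli* OP50 as food, at a final DMSO concentration of 1%. RPW-24, a quinazoline-2,4-diamine that carries a chloro-methylphenyl group, was present at 70 µM in one group and absent from the other. Both exposures of a letter were run at the same time, and arrays of 1 letter therefore form a pair. No pathogen was present in either group. The animals carried no transgene or mutation, and each array read a pool of whole animals.

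The members were chosen by their values on these arrays. Each gene was given the value of 1 probe set, a group of short probes on the array that reads 1 transcript or a few similar ones, and where a gene had several the one with the highest mean over the 6 arrays was used. A gene was taken if its symbol in the array annotation is a sequence name, if its mean log2 intensity was higher in RPW-24 than in DMSO by at least 3-fold, and if its lowest RPW-24 value lay above its highest DMSO value. Genes of 7 clones (F35E12, K08D8, C29F3, C29F7, T16G1, F49F1 and Y38E10A) were left out of the choice. Of 17118 genes measured, 6717 carried a sequence name, 6676 of them lay outside the left-out clones, and 76 of those met the rule. The fold and the separation of the groups therefore describe the members and were not tested.

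A sequence name is an address and not a function. It joins the name of the cloned stretch of DNA in which a gene was first read to a number within that clone, so F53A9.1 and F53A9.8 are 2 genes of clone F53A9. Worm genes gain a name of letters and a number once a mutant phenotype, a protein family or a homolog has been assigned to them. All 76 symbols are unchanged in the RefSeq gene table used here, which lists 74 of them as protein coding, B0238.13 as a pseudogene and Y53F4B.45 as a non-coding RNA. A description was at hand for 6 members, among them an acyl-CoA thioesterase, an alcohol dehydrogenase, a CUB-like protein and an ShK-like toxin. The other 70 are given here by name and value only. Animals meet foreign small molecules with enzymes that oxidize, conjugate and export them, and *C. elegans* meets bacteria with secreted proteins, among which CUB-like and ShK domains recur.

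Over all genes tested with limma at an adjusted p under 0.05, 2.63% were called higher and 1.08% lower in RPW-24. The rule's fold and separation were met by 1.65% of all genes, and separation in that direction alone by 8.4%. Among genes with a sequence name 89 of 6717 (1.325%) met the fold and separation, of which 13 belong to the left-out clones, and among genes with another symbol 194 of 10401 (1.87%) did. Since the members were selected on this contrast, the 58 of 76 called higher at an adjusted p under 0.05 (limma, Benjamini-Hochberg) are given beside these shares as a count only. With the replicate block, which compares RPW-24 with DMSO within each letter, the count was 21, beside 0.835% of all genes called higher and 0.111% lower, and all 21 were also called without the block. The other 18 members missed the threshold without the block. By falling difference they are C14C6.5, F53B2.8, F55G11.2, C50F7.5, C18A11.1, F20G2.1, F30F8.5, C34H4.2, K09D9.1, T10B5.8, D1044.1, T10B10.8, F41C3.2, Y51A2D.13, T01D3.6, C06B3.6, C14C6.2 and F53C11.1.

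The arrays of a group correlated at about 0.998 over all probe sets and those of different groups between 0.983 and 0.986. The lowest value, 4.39, was shared by all arrays and held by 35.5 to 37.1% of the probe sets of each. Levels are given as intensity on a linear scale and in the order G, H, I, and the levels of different probe sets do not order genes by their RNA. Whole animals were lysed, so fewer or more cells of a type and less or more RNA per cell cannot be told apart. Of 7 intestinal marker genes none was called changed, and their summed intensity was 8824 to 11757 in DMSO and 12939 to 17118 in RPW-24. Markers of body wall muscle, pharynx, hypodermis, germline, sperm and coelomocytes also held no call, with hlh-1, ceh-22 and spe-9 at the lowest value on all arrays. The 4 pharynx markers summed to at most 28.4 and the 2 coelomocyte markers to at most 38.7 on any array, too dim to show a fall. The muscle sum was 5463 to 8340 in DMSO and 8284 to 11958 in RPW-24, and the hypodermis sum 10231 to 14174 and 10482 to 12089. Of 6 neuronal markers 2, the neuropeptide processing genes egl-3 and egl-21, were called higher. Log2 differences ran from 0.08 to 1.01 for the intestinal markers and from -0.32 to -0.09 for the 5 germline markers. The germline sum was 27602 to 29820.5 in DMSO and 22692 to 25725 in RPW-24, so no call does not mean level markers. The part of tissue composition in the members' values was not tested.

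The members spanned a wide range of differences. Their log2 differences ran from 1.591 to 7.79 with a median of 2.41, which is 5.30-fold, beside a median of 0 over all genes. At least 50-fold more signal was seen for 9 members and at least 10-fold for 23, while 36 stayed under 5-fold. With values under 32 set to 32, 2 members kept at least 50-fold, F54B8.4 and F21C10.9, and 17 at least 10-fold. In 68 of the 76 the lowest RPW-24 array was more than 2 times the highest DMSO array, and in the other 8 the gap was smaller. The plot of intensities by array shows all 6 values of each member.

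**Figure D1:**
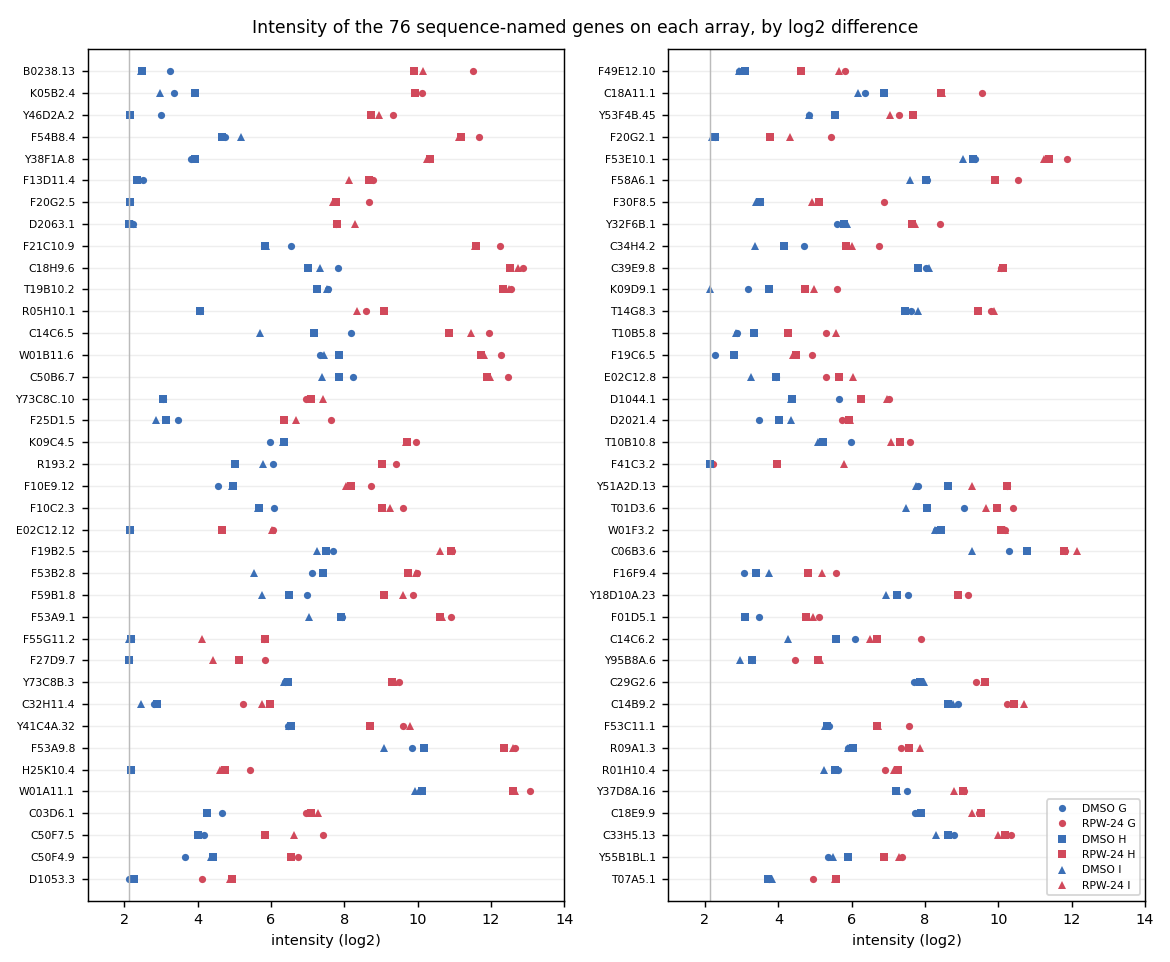
Intensity (log2) of each of the 76 members on the 3 DMSO arrays (blue) and the 3 RPW-24 arrays (red), with circles, squares and triangles for replicates G, H and I, ordered by log2 difference from the left panel to the right; the grey line marks the shared lowest value of 4.39. In each gene the red points lie above the blue ones, as the rule requires, and the DMSO points of 36 genes have a mean intensity under 32.

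The 9 members with at least 50-fold more signal had a mean under 32 in DMSO, F21C10.9 apart. B0238.13, the pseudogene, had intensities of 9.44, 5.55 and 5.52 in DMSO and 2898, 956 and 1134 in RPW-24, a log2 difference of 7.79 ± 0.43 (SD over the 3 pairs, as for the values that follow) or 221-fold. The RPW-24 array of replicate G was more than 2 times as high as those of H and I. Its probe set is 1 of 17 among the members that the array design marks as able to match several transcripts, and the other probe set of this gene, which is not marked so, stayed at the lowest value on all 6 arrays.

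K05B2.4, described as an acyl-CoA thioesterase, an enzyme that frees fatty acids from coenzyme A, measured 10.2, 15.3 and 7.89 in DMSO and 1114, 981 and 969 in RPW-24, 6.57 ± 0.50 on the log2 scale (95.1-fold). The RPW-24 arrays lay close together, and the spread was in DMSO. Y46D2A.2, a protein of the domain family DUF274, whose function is not known, measured 7.97, 4.50 and 4.50 in DMSO and 645, 424 and 491 in RPW-24 (log2 difference 6.55 ± 0.21, 94.00-fold). F54B8.4 had 27.00, 25.3 and 36.4 in DMSO and 3276, 2317 and 2236 in RPW-24, a log2 difference of 6.46 ± 0.49 (88.1-fold). In both, replicate G gave the highest RPW-24 value.

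Y38F1A.8 was the steadiest of these 9 in RPW-24, at 14.1, 15.3 and 15.1 in DMSO against 1275, 1284 and 1233 (log2 difference 6.41 ± 0.081, 85.2-fold). F13D11.4 measured 5.71, 5.11 and 5.11 in DMSO and 440.1, 406 and 279 in RPW-24, with replicate I lowest (6.12 ± 0.30, 69.5-fold). F20G2.5, a CUB-like protein, was at 4.49, 4.49 and 4.49 in DMSO and 410.4, 219 and 206 in RPW-24 (5.88 ± 0.55, 58.9-fold). Its DMSO values are the same on all 3 arrays and only just above the shared lowest value.

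D2063.1, described as an alcohol dehydrogenase, a class of enzyme that oxidizes alcohols to aldehydes or ketones, measured 4.70, 4.39 and 4.70 in DMSO and 218, 222 and 315 in RPW-24, a log2 difference of 5.75 ± 0.28 (53.9-fold). Here replicate I, not G, was highest in RPW-24, and 1 DMSO array was at the lowest value. F21C10.9 had 94.1, 57.8 and 58.5 in DMSO and 4817, 3096 and 3043 in RPW-24, 5.71 ± 0.034 on the log2 scale (52.3-fold). Its 3 pairs agreed to within 0.034 (SD), although the levels of pair G were higher than those of H and I in both groups.

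A second set of members was well above the bottom of the scale in DMSO and still gave over 19-fold more signal in RPW-24. C18H9.6 measured 226, 130.2 and 163 in DMSO and 7557, 5853 and 6863 in RPW-24, a log2 difference of 5.32 ± 0.22 (39.8-fold). T19B10.2 measured 189, 154 and 184 and 5929, 5127 and 5799 (5.002 ± 0.048, 32.04-fold), and its pairs differed least of these. W01B11.6 measured 162, 233 and 174 in DMSO and 4962, 3368 and 3561 in RPW-24 (4.38 ± 0.54, 20.8-fold). This probe set can match several transcripts, and the other probe set of W01B11.6, which is not marked so, gave a log2 difference of 0.0009. In C18H9.6, T19B10.2 and W01B11.6 the RPW-24 array of G was the highest.

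C50B6.7 measured 302, 231 and 169 in DMSO and 5613, 3768 and 4039.8 in RPW-24 (4.28 ± 0.28, 19.4-fold). C14C6.5, described as an ShK-like toxin, a secreted protein with a domain first known from a sea anemone toxin, measured 289, 145 and 51.9 in DMSO and 3952, 1862 and 2818 in RPW-24 (4.41 ± 1.18, 21.2-fold). Its DMSO values spread more than 5-fold between arrays, with G highest and I lowest, so that pair I differed by 5.76 and pairs G and H by 3.77 and 3.68 on the log2 scale. This spread is among the 5 widest of the members.

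R05H10.1 had 16.7, 16.7 and 16.7 in DMSO and 383, 544 and 328 in RPW-24, with H highest (4.62 ± 0.37, 24.5-fold). Y73C8C.10 was likewise at 1 value on all DMSO arrays, 8.33, 8.33 and 8.33, and at 124, 136 and 172 in RPW-24 (4.10 ± 0.24, 17.2-fold). F25D1.5 measured 10.98, 8.81 and 7.36 and 198, 82.6 and 102 (3.73 ± 0.48, 13.3-fold), with the G array the highest in both groups. In all, 6 members had the same value on the 3 DMSO arrays (SD under 1e-06), and of these F20G2.5, R05H10.1 and Y73C8C.10 had RPW-24 values over 32 on each array.

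K09C4.5 measured 62.6, 81.7 and 80.2 in DMSO and 994, 841 and 823 in RPW-24 (3.57 ± 0.36, 11.9-fold). R193.2 measured 67.01, 32.4 and 54.9 and 687, 519.5 and 519.5 (3.54 ± 0.41, 11.6-fold). F10E9.12 measured 23.6, 31.3 and 30.5 and 425, 289.9 and 266 (3.500 ± 0.58, 11.3-fold). These close the 20 largest differences, and the next gene in order followed at 3.48 with no gap. The plot of all genes in both groups shows where the members lie.

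**Figure D2:**
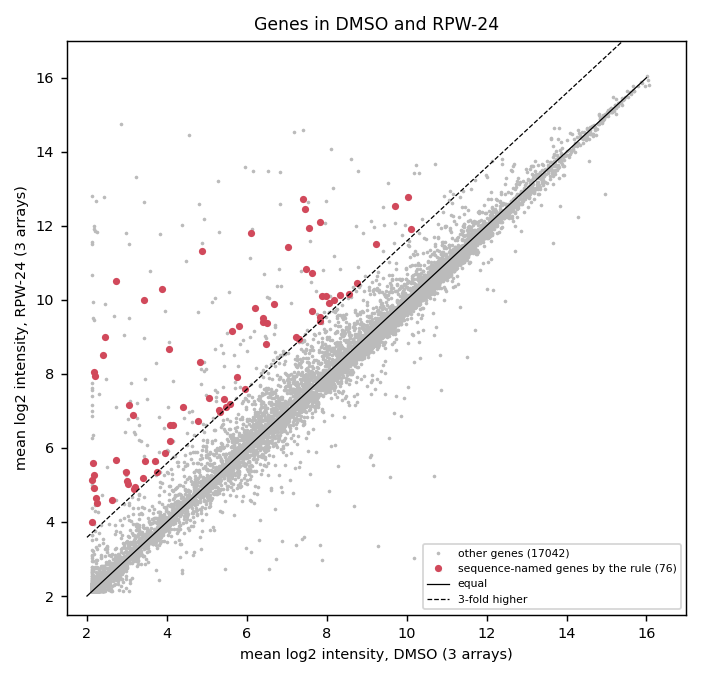
Mean log2 intensity of each gene over 3 RPW-24 arrays (y axis) against its mean over 3 DMSO arrays (x axis), with the 76 members in red, the other genes in grey, a solid line for equal values and a dashed line for 3-fold. The members lie above the dashed line over the whole range of DMSO means up to 1215 intensity units, and other genes lie there too.

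The differences are given here by level, since small values near the bottom of the scale can give large ratios. The mean in DMSO was under 32 in 36 members and 32 or more in 40. The 15 members with a DMSO mean under 8 had a median log2 difference of 3.00 and a median RPW-24 mean of 43.8, and the 21 between 8 and 32 had 2.18 and 98.3. The 25 between 32 and 200 had a median log2 difference of 2.87 with a median RPW-24 mean of 632, and the 15 over 200 had 1.85 with 1150.4. The pairs spread less at higher levels, with a median SD over the pairs of 0.55, 0.50, 0.32 and 0.28 in these 4 classes.

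If values under 32 are set to 32, 54 of the 76 members still differed by 3-fold or more and 22 did not, 21 of which had a DMSO mean under 32. The median log2 difference of the 76 was then 1.87. At this floor the largest log2 difference was that of F54B8.4 at 6.27, followed by F21C10.9 at 5.71. B0238.13 kept a log2 difference of 5.52, Y38F1A.8 5.30, K05B2.4 4.99, Y46D2A.2 4.00, F13D11.4 3.52, F20G2.5 3.05 and D2063.1 2.95, while C18H9.6 and T19B10.2, like F21C10.9, were untouched. In 18 members every DMSO array was under 32 and every RPW-24 array above it.

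The members F41C3.2, F19C6.5, F20G2.1, D1053.3 and Y95B8A.6 were among the 7 with an RPW-24 mean under 32. F41C3.2 was at the lowest value on all DMSO arrays and measured 4.65, 15.7 and 55.2 in RPW-24, so that its 3.62-fold mean difference is counted from the bottom of the scale. The 3 RPW-24 arrays of this gene range over more than 10-fold, and pair G differed by only 0.08 on the log2 scale. F27D9.7, the other member with all DMSO arrays at the lowest value, measured 57.5, 35.3 and 21.5 in RPW-24, a mean difference of 8.02-fold counted in the same way. With values under 32 set to 32, F41C3.2 differed by 0.26 and F27D9.7 by 0.33 on the log2 scale.

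F19C6.5 measured 4.86, 6.93 and 6.93 in DMSO and 29.9, 22.4 and 21.1 in RPW-24 (1.97 ± 0.56). F20G2.1 measured 4.85, 4.85 and 4.56 in DMSO and 43.4, 13.6 and 20.1 in RPW-24 (2.26 ± 0.84). D1053.3 measured 4.39, 4.85 and 4.83 in DMSO and 17.3, 30.6 and 29.8 in RPW-24 (2.42 ± 0.38). With values under 32 set to 32, F19C6.5 and D1053.3 showed no difference and F20G2.1 one of 0.15 on the log2 scale. Y95B8A.6, at 9.72, 9.76 and 7.81 in DMSO and 21.9, 34.1 and 35.1 in RPW-24 (1.71 ± 0.51), came to 0.08.

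At the other end, W01A11.1 and F53A9.8 had bright probe sets in both groups. W01A11.1 measured 1067, 1116 and 969.8 in DMSO and 8506, 6219.8 and 6436 in RPW-24, a log2 difference of 2.73 ± 0.26 (6.66-fold). F53A9.8 measured 914, 1150.4 and 545 in DMSO and 6466, 5288 and 6169 in RPW-24 (2.84 ± 0.65, 7.16-fold), and of its DMSO arrays I was lowest. An RPW-24 mean over 1000 was reached by 23 members and one under 32 by 7.

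Among the other members, several with a clear level in DMSO gave narrow values in both groups. Y73C8B.3 measured 83.9, 87.9 and 81.6 in DMSO and 722, 635 and 660.3 in RPW-24 (2.99 ± 0.13, 7.95-fold). F19B2.5 measured 209, 179.8 and 154 in DMSO and 1962, 1939 and 1575 in RPW-24 (3.34 ± 0.099, 10.1-fold). C39E9.8 measured 261, 223 and 277 in DMSO and 1082, 1124 and 1073 in RPW-24 (2.11 ± 0.20, 4.32-fold). In each of these the gap between the groups was several times the spread within them. T14G8.3 measured 196, 174 and 226 in DMSO and 896, 690.4 and 943 in RPW-24 (2.08 ± 0.10, 4.23-fold), and W01F3.2 measured 313, 348 and 308 and 1154, 1066 and 1157 (1.802 ± 0.16, 3.49-fold).

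Others spread more between arrays. F59B1.8 measured 126, 90.5 and 53.9 in DMSO and 937, 545 and 779 in RPW-24 (3.11 ± 0.66, 8.65-fold), with the lowest DMSO value in I and the lowest RPW-24 value in H. T01D3.6 measured 532, 264 and 179 in DMSO and 1342, 998 and 809.8 in RPW-24 (1.81 ± 0.43, 3.51-fold), with G highest and I lowest in both groups. Y51A2D.13 measured 223, 398 and 216 and 1199, 1198 and 625 (1.85 ± 0.50, 3.61-fold), where the RPW-24 array of I lay closest to the DMSO array of H. C18A11.1 measured 81.9, 118 and 72.6 in DMSO and 751, 345 and 354 in RPW-24 (2.34 ± 0.83, 5.08-fold), and its G array in RPW-24 was the highest by far. Dim members could spread widely, as F55G11.2 did with 4.58, 4.57 and 4.39 in DMSO and 56.4, 57.7 and 17.5 in RPW-24, where I was the lowest.

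The members just inside and just outside the rule differed little. The last 5 inside were Y37D8A.16 at 1.63 ± 0.16, C18E9.9 at 1.60 ± 0.16, C33H5.13 at 1.60 ± 0.084, Y55B1BL.1 at 1.592 ± 0.54 and T07A5.1 at 1.591 ± 0.35 on the log2 scale. T07A5.1, the lowest, measured 13.5, 13.2 and 14.05 in DMSO and 30.7, 47.3 and 47.03 in RPW-24, where Y55B1BL.1 measured 41.1, 59.97 and 44.6 and 165, 118 and 155. The first 5 outside were F41B4.3 at 1.57, F46G10.1 at 1.57, T28H10.2 at 1.56, F59B1.2 at 1.55 and T12D8.5 at 1.55. No gene with a sequence name that reached the fold was left out for overlap of the groups.

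Between biological replicates the members moved unevenly. A 3-fold difference was reached in all 3 pairs by 52 members, in 2 pairs by 18 and in 1 pair by 6. The median difference over the members was 2.84 in pair G, 2.13 in pair H and 2.69 in pair I. Pairs G and I each held the largest difference of 31 members and pair H of 14. The RPW-24 array of G was the highest of the 3 in 51 of 76 members (67.1%), and in 123 of the 194 genes with another symbol that met the same fold and separation (63.4%). In DMSO the array of G was the highest in 42 members (55.3%) and in 127 of those 194 genes (65.5%).

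**Figure D3:**
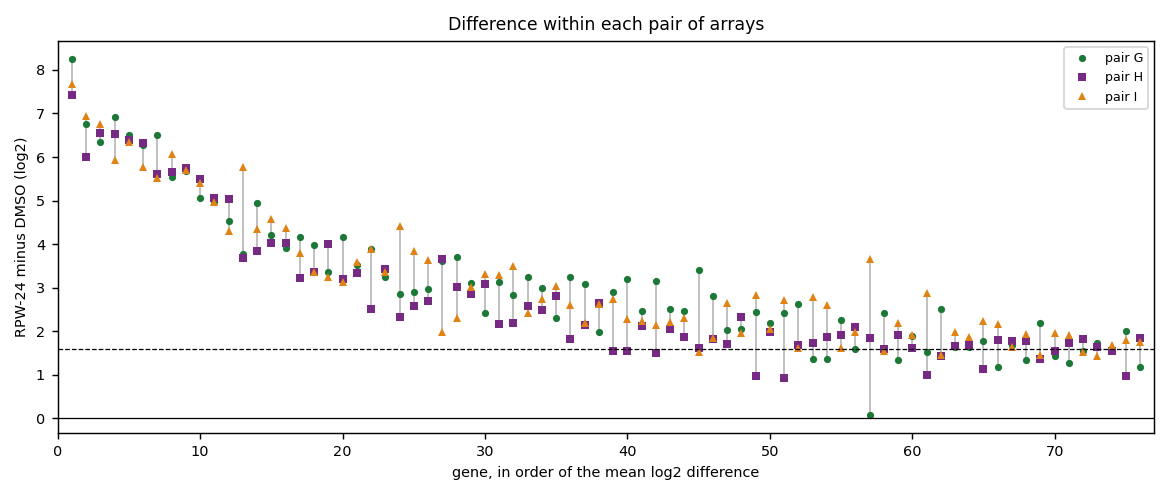
RPW-24 minus DMSO on the log2 scale within pair G (circles), pair H (squares) and pair I (triangles) for the 76 members in order of their mean difference, with a grey line over the range of the 3 pairs and a dashed line at 3-fold. Of the 76 genes, 52 have all 3 points at or above the dashed line and 24 have a point below it, and the point near 0 is pair G of F41C3.2.

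The members whose pairs spread most were F41C3.2, C14C6.5, F53B2.8, F30F8.5 and K09D9.1. F53B2.8 measured 139, 170.0 and 46.4 in DMSO and 1009, 847 and 991 in RPW-24, so that pairs G, H and I differed by 2.86, 2.32 and 4.42, the spread coming from the low DMSO array of I. F30F8.5 measured 11.2, 11.2 and 10.5 in DMSO and 119, 34.3 and 30.4 in RPW-24, the spread coming from the high RPW-24 array of G. K09D9.1 measured 8.93, 13.4 and 4.39 in DMSO and 48.6, 26.3 and 31.5 in RPW-24, with pair differences of 2.44, 0.97 and 2.84. At the other end, 16 members had an SD over the pairs under 0.2, F21C10.9, Y38F1A.8 and T19B10.2 among the largest differences.

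For 15 members the array carries further probe sets, 16 in all, which the rule did not use, and these did not all repeat the difference. In 6 of the 16 the difference was at least 3-fold. T19B10.2 gave 5.18 on its other probe set against 5.002 on the one used, at 92.3, 81.1 and 101 in DMSO and 3474, 2780.4 and 3775 in RPW-24. C14C6.5 gave 5.14 against 4.41, at 116, 64.1 and 26.7 and 3108, 1385 and 2039.6, and in this probe set too the DMSO value was highest in G and lowest in I. R193.2 gave 3.37 against 3.54, Y73C8B.3 2.36 against 2.99, W01F3.2 1.86 against 1.802 and C14C6.2 1.75 against 1.72. C14B9.2 gave 1.35 against 1.68, with the groups still apart.

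The other 9 probe sets had an RPW-24 mean under 32 and differed from the one used by more than 1 on the log2 scale. B0238.13 was at the lowest value on all 6 arrays in its other probe set, as were 1 of the 2 other probe sets of C50F7.5 and the other probe set of Y53F4B.45. W01B11.6 was at the lowest value on 5 of 6 arrays, and F10E9.12 measured 4.39, 4.39 and 4.39 in DMSO and 8.76, 4.39 and 4.64 in RPW-24 there. E02C12.8 differed by 0.28, Y95B8A.6 by 0.63 and F53C11.1 by 0.60 on the log2 scale, each with the RPW-24 arrays above the DMSO arrays and all values dim. The differences of these 8 members rest on 1 probe set each. For B0238.13, W01B11.6 and Y53F4B.45 that probe set can match several transcripts, while the one at or near the lowest value in both groups is not marked so, and which transcripts gave the signal was not tested. In the probe set used, C50F7.5 measured 18.1, 16.2 and 16.2 in DMSO and 171, 57.1 and 98.5 in RPW-24. F53C11.1 measured 41.6, 39.9 and 38.5 in DMSO and 188, 102 and 105 in RPW-24. Y53F4B.45 measured 28.3, 46.8 and 28.3 in DMSO and 156, 203 and 133 in RPW-24. Y53F4B.45 is described as upregulated in the dauer larva, the resistant larval stage that worms enter when food is short.

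**Figure D4:**
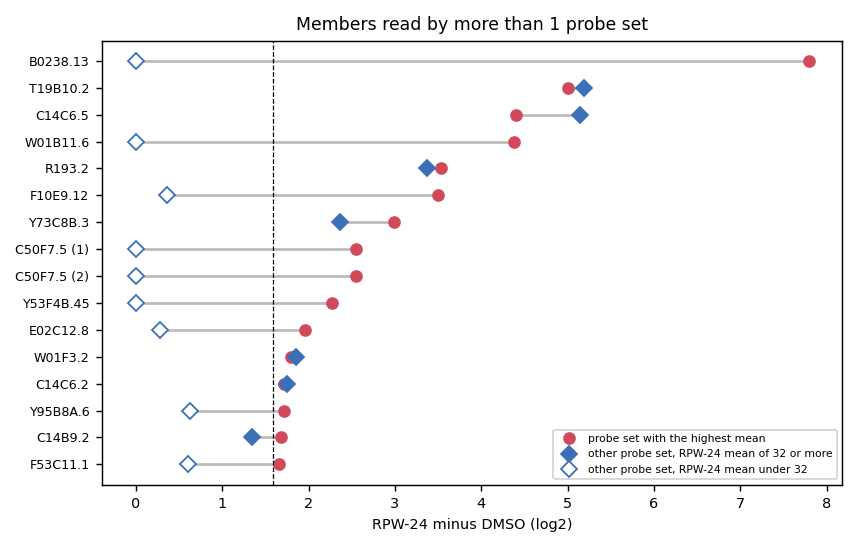
RPW-24 minus DMSO on the log2 scale for the 15 members read by more than 1 probe set, from the probe set used (red circles) and from the others (blue diamonds, open where the RPW-24 mean is under 32), with a dashed line at 3-fold. The 7 filled diamonds lie within 0.74 of their circle, and the 9 open ones lie more than 1 to its left.

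A further 11 probe sets met the same fold and separation but name several genes, with at least 1 sequence name among them, so they are no members. The one for E02C12.11 and E02C12.10 was at the lowest value on all DMSO arrays and at 729, 337 and 635 in RPW-24, at least 123-fold higher. A probe set shared by B0238.13 and cest-35.2 was at the lowest value in DMSO and at 659, 362 and 432 in RPW-24, at least 107-fold higher, beside the 221-fold of the probe set that names B0238.13 alone. One shared by Y46D2A.2 and F39E9.1 measured 19.7, 7.02 and 4.39 in DMSO and 96.7, 52.5 and 83.9 in RPW-24, a log2 difference of 3.15. One for T25G12.13 and C33E10.10 gave at least 74.4-fold, and the 2 for F44E5.5 and F44E5.4 gave 43.9-fold and 39.4-fold. Which of the genes a shared probe set reads cannot be told apart on the array.

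The position of the members was compared with their chromosomal neighbours, most of which the rule could not have taken. In the order of the 17075 measured genes that the reference table places, the nearest measured gene on either side of each member was taken, without the members themselves, which gave 150 genes. Of these, 9 (6%) were called higher at an adjusted p under 0.05 (limma) and 2 (1.33%) lower, beside 2.63% and 1.08% of all genes. A sequence name left 49 of the 150 open to the rule, so these are neighbours because they failed it, and 1 of them was called higher and 1 lower. Of the other 101, which the rule could not take, 8 (7.92%) were called higher and 1 (0.99%) lower, beside 3.19% and 1.24% of all 10442 such genes. With the replicate block 4 of the 150 were called higher and 1 lower, beside 0.835% and 0.111% of all genes. Without DMSO H, DMSO I or RPW-24 H 5 were called higher each time, and with arrays centred on their medians 14 (9.33%) were called higher and 85 (56.7%) lower, beside 5.21% and 65.3% of all genes. Centring moved the log2 difference of every gene by -0.14, so genes at the lowest value on all arrays can be called lower by the shift alone. The neighbours' median log2 difference was 0, and 49 of them were at the lowest value on all arrays. The 9 higher neighbours flank 7 members.

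The largest differences lay around K09D9.1, itself one of the dim members. On one side of it is cyp-35A3, a cytochrome P450, which measured 7.74, 6.995 and 7.06 in DMSO and 33343, 22664 and 27160.2 in RPW-24, a log2 difference of 11.88 ± 0.21 (adjusted p = 5.98e-05, limma). On the other is cyp-35A4, of the same family, at the lowest value on all DMSO arrays and at 5623, 2201 and 1997 in RPW-24, at least 663-fold higher (adjusted p = 0.00185, limma). Cytochromes P450 oxidize fat-soluble compounds, foreign ones included. K09D9.1 itself was at 48.6 or less on the RPW-24 arrays, and with values under 32 set to 32 its log2 difference was 0.20.

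B0238.13 lies next to cest-35.1, a carboxylesterase gene of the same clone, which measured 22.4, 15.1 and 10.9 in DMSO and 1075, 733 and 734 in RPW-24 (5.75 ± 0.28, adjusted p = 0.00291, limma). Carboxylesterases split ester bonds. The probe set of cest-35.1 can match several transcripts too, and whether it reads the 2 genes apart was not tested. F27D9.7 lies next to mfsd-8.5, a gene of the major facilitator transporters, at 29.2, 50.3 and 29.2 in DMSO and 1162, 882 and 932 in RPW-24 (4.81 ± 0.61, adjusted p = 0.00276, limma, and 0.0698 with the replicate block).

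T19B10.2 lies next to cyp-29A2, another cytochrome P450, which measured 123, 82.4 and 80.02 in DMSO and 895, 1034 and 1269 in RPW-24 (3.499 ± 0.58, adjusted p = 0.00438, limma, and 0.0890 with the replicate block). In this gene the RPW-24 value was lowest in G and highest in I, unlike in T19B10.2, where H was lowest. F13D11.4 lies next to acp-5, an acid phosphatase gene, at 128, 98.5 and 98.6 in DMSO and 398, 339 and 318 in RPW-24 (1.70 ± 0.073, adjusted p = 0.0102, limma). The adjusted p of acp-5 was 0.0553, 0.0598 and 0.0530 without DMSO H, DMSO I and RPW-24 H.

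Clone F53A9 held 2 members and 2 other genes called higher. F53A9.1, a member, measured 247, 239.8 and 131 in DMSO and 1921, 1552 and 1622 in RPW-24 (3.10 ± 0.48), and F53A9.8, described above, lies 3 measured genes further on. Between and beside them, F53A9.6 measured 376, 293 and 216 in DMSO and 915, 727 and 856 in RPW-24 (1.53 ± 0.40, adjusted p = 0.0483, limma) and kreg-1 measured 12.8, 9.05 and 8.50 and 66.6, 51.3 and 121 (2.90 ± 0.80, adjusted p = 0.0317, limma). With the replicate block the adjusted p was 0.145 and 0.155. F53A9.7, between F53A9.6 and F53A9.8, had a log2 difference of 0.22 and was not called.

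F20G2.1 lies beside the left-out clone F35E12, and its neighbour there, cld-9, measured 28.3, 19.4 and 45.1 in DMSO and 265, 138 and 259.5 in RPW-24 (2.86 ± 0.35, adjusted p = 0.0479, limma, and 0.0698 with the replicate block). The calls of cld-9 and F53A9.6 were lost on leaving out any single array, with adjusted p from 0.0757 to 0.154 and from 0.0543 to 0.173, and that of kreg-1 on leaving out any but RPW-24 I, from 0.0585 to 0.134. With values under 32 set to 32 none of these 3 genes was called, at adjusted p of 0.0556, 0.0861 and 0.270. The 2 lower neighbours were irg-3, an infection response gene beside C29G2.6, at 77.2, 78.6 and 53.7 in DMSO and 9.59, 9.59 and 8.43 in RPW-24 (-2.90 ± 0.20, adjusted p = 0.00354, limma), and D1044.6 beside D1044.1, at 856, 792 and 888 and 481, 488 and 503 (-0.78 ± 0.074, adjusted p = 0.00405, limma, and 0.0558 with the replicate block). For irg-3 the adjusted p was 0.0817 with values under 32 set to 32, while the member beside it, C29G2.6, measured 207, 234 and 249.7 in DMSO and 667, 796 and 780.2 in RPW-24, the other way.

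**Figure D5:**
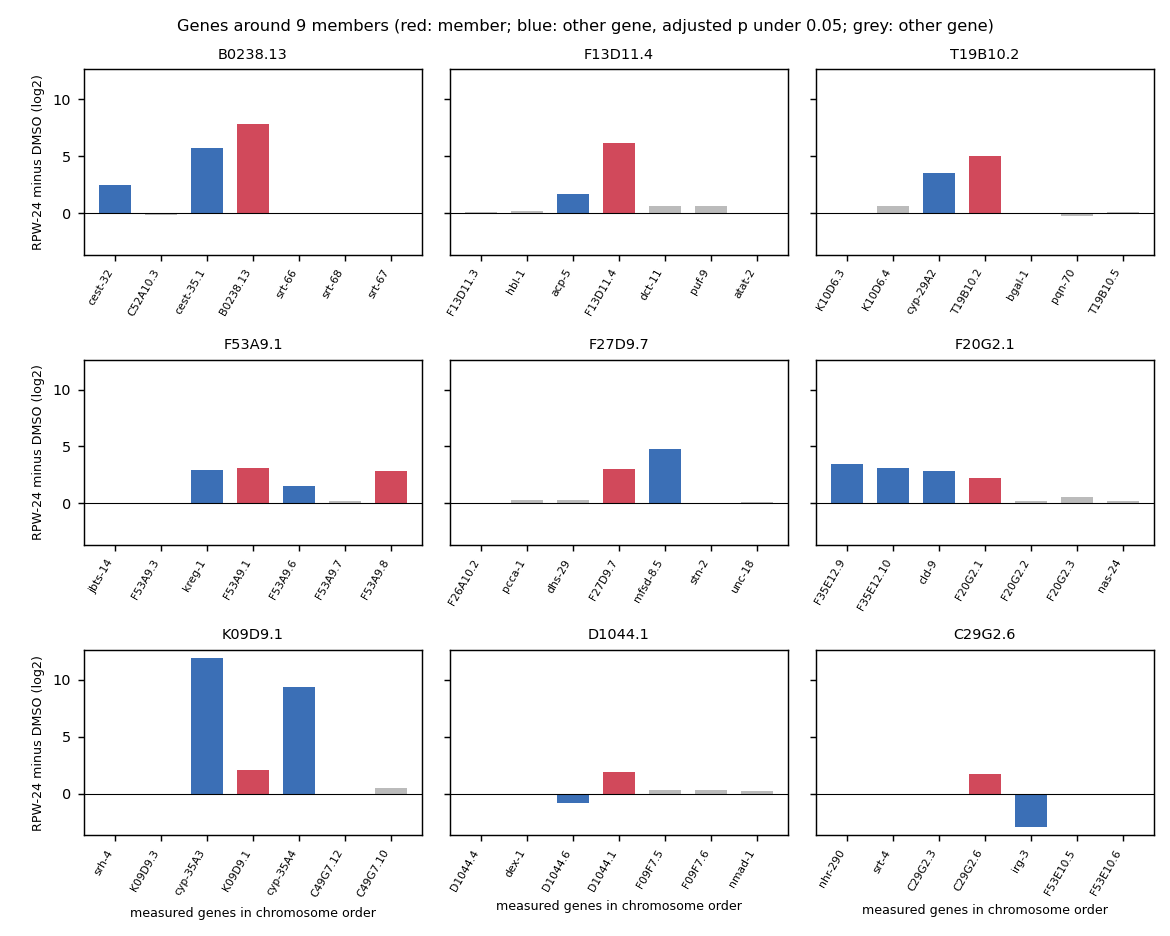
RPW-24 minus DMSO (log2) for the 3 measured genes on either side of the 9 members with a called neighbour, in chromosome order without scale, with members in red, other genes called at an adjusted p under 0.05 (limma) in blue and the rest in grey. In 7 panels a blue bar stands directly beside the member on 1 side and in those of K09D9.1 and F53A9.1 on both sides, with D1044.6 and irg-3 below 0; the panel of F20G2.1 shows 2 genes of the left-out clone F35E12 beyond cld-9.

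Only 1 pair of members were direct neighbours, F20G2.5 and F53C11.1. F20G2.5, the CUB-like protein, had a log2 difference of 5.88 and F53C11.1 one of 1.66, and they belong to different clones. Members sharing a clone were E02C12.8 with E02C12.12, F20G2.1 with F20G2.5, F53A9.1 with F53A9.8 and C14C6.2 with C14C6.5, and the other 68 members were alone on theirs. E02C12.12 measured 4.4525, 4.4520 and 4.4525 in DMSO and 66.1, 25.6 and 65.6 in RPW-24, where E02C12.8 measured 15.2, 15.2 and 9.49 and 39.3, 50.4 and 65.3. C14C6.2 measured 68.4, 47.4 and 19.1 in DMSO and 236, 104 and 90.7 in RPW-24, with G highest and I lowest in DMSO, the order of the C14C6.5 arrays.

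The other measured genes of the members' 72 clones, 505 in all, were examined as an addition after the values were seen. Of these, 18 (3.56%) were called higher and 4 (0.792%) lower at an adjusted p under 0.05 (limma), beside 2.63% and 1.08% of all genes, and their median log2 difference was 0. The called neighbours described above, apart from cyp-35A4 and cld-9, lie on these clones and are counted here again. The further genes named below were picked from these calls after their values were seen. Beside cyp-35A3, the largest difference among the higher ones was that of irg-6, an infection response gene on the clone of C32H11.4, at 9.45 ± 0.57 in DMSO and 10719.6 ± 4370.0 in RPW-24 (SD, n = 3), a log2 difference of 10.08 (adjusted p = 0.000525, limma). C32H11.4 itself measured 7.06, 7.44 and 5.47 in DMSO and 37.6, 63.4 and 54.5 in RPW-24. On the clone of C06B3.6, the cytochrome P450 gene cyp-35C1 had a log2 difference of 9.91 (adjusted p = 0.00287, limma), while C06B3.6 measured 1254, 1769 and 622 in DMSO and 3626, 3539.8 and 4544 in RPW-24.

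Smaller calls on these clones were the galectin gene lec-10 at 1.71 (adjusted p = 0.0190, limma) on that of W01A11.1 and the dienoyl-CoA reductase gene decr-1.1 at 1.40 (adjusted p = 0.0112, limma) on that of F53C11.1. The glutathione S-transferase gene gst-42, on the clone of D1053.3, differed by 1.13 (adjusted p = 0.00266, limma). Another glutathione S-transferase gene, gst-29, on the clone of Y53F4B.45, differed by -3.86 (adjusted p = 0.000135, limma). Glutathione S-transferases conjugate reactive compounds to glutathione, and of these 2 one was higher and the other lower in RPW-24.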

How the data were processed

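RNA of 3 DMSO and 3 RPW-24 samples was hybridized to Affymetrix arrays. The authors summarised the arrays by GC-RMA, normalized them by quantiles in GenePattern and deposited linear intensities; the GC-RMA version and any genome build are not given in the sources used here. Quantile normalization leaves a change in total RNA unreadable.

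Without 77 controls, 22548 of 22625 probe sets entered on the log2 scale. Groups were compared in R 4.3.3 by limma 3.58.1 (lmFit, eBayes with trend), without a block or filter, neither of which the study's methods state for the arrays, and Benjamini-Hochberg adjusted at 0.05. The annotation names 1 gene for 20766 probe sets, several for 887 and none for 895. Values under 32 were set to 32 as an alternative. Tables were handled in Python 3.11.15 (pandas 2.3.3, numpy 2.4.6) and the fit was tested on simulated data. RefSeq (assembly WBcel235) gave names, gene types and order, with 43 genes unmatched. Arrays have no depth; 3 per group limit the precision, and an exact permutation test of 3 against 3 cannot go below 0.1.

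The design states that the exposures of a letter ran in parallel, and the deviations of same-letter arrays from their group means correlated at 0.088 (G), 0.144 (H) and 0.138 (I) over 13981 probe sets, against -0.094 to -0.032 for other pairings. Deviations from a group mean cancel within the group, so positive values for the same letter force negative ones for other pairings. Since the design states the pairing, the letter was used as a replicate block beside the main comparison. With the block 0.835% of all genes were called higher, against 2.63% without it. Adjusted p values given without mention of the block, those of the clone genes included, come from the fit that leaves the pairing out.

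The genes named are the 20 members with the largest difference, the 5 just inside and outside the rule, the 5 with the highest and lowest RPW-24 means, the 5 whose pairs vary most, adjacent members, members whose probe sets differ by more than 1 (log2), described members and called neighbours; others were named after their values were seen. Members and lists were chosen with earlier results of these data known. Protein and promoter comparisons were not made, since no sequences were used here.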

Additional observations from a re-analysis of the deposited data

How the results depend on the processing

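The rule gave 74 to 84 members on leaving out single arrays, 65 after a further quantile normalization and 54 with values under 32 set to 32. It gave 161 at a log2 difference of at least 1 and 51 at 2. With the replicate block 21 of 76 members were called, beside 0.835% of all genes called higher. Among probe sets whose mean log2 value was 5 or more the block called 56 of 57, a choice added after the data were seen. The methods' t-test called 18 after Benjamini-Hochberg adjustment. For the t-test and for the block with this level filter the share of all genes is not given here. The members were selected on this contrast, so all of these are counts only. Leaving out single arrays gave 33 to 46 called members (33 without DMSO H, 35 without DMSO I or RPW-24 I, 37 without RPW-24 H), beside 1.33 to 1.92% of all genes called higher. It gave a median log2 difference of the members of 2.35 to 2.59, 5 to 9 higher neighbours (5 without DMSO H, DMSO I or RPW-24 H) and 2 to 3 lower ones. The median was 1.87 with values under 32 set to 32, and 1 neighbour was then lower. Centring arrays on their medians, which moved the median log2 difference of all genes from 0 to -0.14, gave 63 members, 14 higher and 85 lower neighbours, the block 4 and 1, and taking 2 genes on either side 15 and 4. Under centring 9.33% of neighbours were called higher and 56.7% lower, beside 5.21% and 65.3% of all genes. Genes at the lowest value on all arrays, as 49 of the 150 neighbours were, then differ by this shift alone. Their spread is close to 0, so the lower calls under centring cannot be read as less signal. No difference of a called neighbour changed sign under the alternatives run. The same held for the members named by the rule. When arrays were left out or low values raised, this was fixed in advance. For the members the rule's separation of the groups did so, and the groups of each called neighbour did not overlap either. Of the single genes, B0238.13, W01B11.6 and Y53F4B.45 were at 0 without probe sets that match several transcripts. Comparisons of related proteins, promoters and described classes were not run.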
